A study of Arabidopsis thaliana with 24 samples.

Results

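Seedlings of the Arabidopsis thaliana accession Landsberg erecta (Ler) that carry the prmt5-5 mutation were compared with prmt5-5 seedlings of Columbia (Col). The comparison took 6 of the 24 libraries of the series, 3 of each accession, and every gene counted in them. Of 33602 genes, 22924 had enough counts to be tested, and 3 were left out because the Ler columns held no value for them. The comparison lists the accession differences that exist when PRMT5 is mutant. The same difference in wild type (WT), taken from 3 WT Ler and 3 WT Col libraries, was set beside it. All 12 libraries entered 1 fit and share its estimate of the spread, while the fold change in prmt5-5 rests on the mutant libraries. Fitted alone, the 6 mutant libraries gave 5696 genes called.

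All seedlings were 9 days old and were collected whole after growth on agar in continuous white light at 22 °C, which followed 4 days of stratification at 4 °C. The prmt5-5 allele was isolated in Col-0, so prmt5-5 Col carries it in the background in which it arose, while prmt5-5 Ler was made by 7 generations of backcrossing to Ler. The mutant of each accession goes back to that single allele. Ler lines carry a mutation in the receptor kinase gene ERECTA, which WT and prmt5-5 Ler share. The labels name neither the number of seedlings behind a library nor the origin of the replicates. The p-values therefore measure the spread between these samples, which may be technical.

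The PRMT5 enzyme attaches methyl groups symmetrically to arginines of histones and of Sm proteins, the core of the spliceosomal snRNPs. Arabidopsis mutants lacking it flower late, have a lengthened circadian period and splice many introns poorly. Col and Ler are laboratory accessions that differ by many sequence variants, among them known alleles of glucosinolate and disease resistance genes, and part of their RNA differences comes from genes that are absent or diverged in one accession. Reads were placed on the Col reference, so little RNA and few reads placed from a diverged or missing Ler sequence cannot be told apart.

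The 6 mutant libraries held between 40048473 and 71881791 counts. Correlations of log2 levels over all genes tested were 0.986 to 0.994 among prmt5-5 Ler libraries, 0.989 to 0.992 among prmt5-5 Col libraries and 0.914 to 0.922 between the accessions. Replicate 1 of prmt5-5 Ler stood apart from the other 2. It had 189 genes more than 1 log2 unit below their mean and 26 above it, against 4 and 44 for replicate 2, and 5 and 12 for replicate 3. Replicate 1 of prmt5-5 Col stood apart to a lesser extent, with 144 genes above and 9 below the mean of its partners. Some results, but not all, are also given without replicate 1 of prmt5-5 Ler. Single genes and lists are not given without replicate 1 of prmt5-5 Col. The count of genes called without that library was 5478.

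PRMT5 (AT4G31120, chromosome 4, 15132011 to 15136696, TAIR10.1) was not called between the mutants. It had 37.2, 32.9 and 29.7 CPM (counts scaled to library size) in prmt5-5 Ler and 36.2, 30.1 and 34.6 CPM in prmt5-5 Col, and the ranges overlapped. The log2 fold change was -0.02 (SE 0.09, adjusted p = 0.917). In WT it was 32.3, 34.7 and 33.1 CPM in Ler and 31.5, 29.9 and 32.4 CPM in Col, so its RNA level does not separate mutant from WT and checks neither label.

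Genes that differed between the mutant accessions were about as often higher as lower in Ler. With edgeR's quasi-likelihood test and an adjusted p under 0.05, 6434 of 22924 genes were called (28.1%). Of these, 3201 were higher (14%) and 3233 lower (14.1%) in prmt5-5 Ler. The median absolute log2 fold change of the genes called was 0.62, and 2141 genes (9.34%) were called with a fold of at least 2, 1070 higher and 1071 lower. The median log2 fold change over all genes tested was -0.00067, which is the background for every gene list below. The accessions did not overlap in 9741 of 22924 genes tested (42.5%) and in 6277 of the 6434 genes called. Lack of overlap, given for genes below, is therefore usual for a called gene. In whole seedlings, fewer cells of a type and less RNA per cell cannot be told apart. Leaving out one library at a time gave between 4875 and 6794 genes called. In WT 6824 genes were called between the accessions (29.8%), 3332 higher and 3492 lower in Ler. An interaction, a difference between the prmt5-5 and the WT log2 fold change, was called for 769 genes (3.35%).

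Genes of glucosinolates, the sulfur-containing defence compounds of the Brassicaceae, were among those with the largest differences, in both directions. Aliphatic glucosinolates are made from methionine by chain elongation, core synthesis and side-chain modification, and on tissue damage myrosinases cleave them while specifier proteins steer the products to nitriles or isothiocyanates. AOP3 (AT4G03050, chromosome 4, 1343845 to 1346436), which forms hydroxyalkyl glucosinolates, had 174, 192 and 201 CPM in prmt5-5 Ler, against 0.407, 0.150 and 0.241 CPM in prmt5-5 Col. The log2 fold change was 9.43 (SE 0.24, adjusted p = 2.95e-12). All Ler libraries lay above all Col libraries, which was required of the genes picked for the largest folds. Its neighbour AOP2 (AT4G03060, chromosome 4, 1351688 to 1354096), which forms alkenyl glucosinolates, ran the other way: it had 1.59, 2.74 and 1.92 CPM in prmt5-5 Ler and 33.9, 31.5 and 31.0 CPM in prmt5-5 Col (log2 -3.95, SE 0.15, adjusted p = 9.73e-11). The 2 genes are similar copies, and reads may be split between them.

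GSL-OH (AT2G25450, chromosome 2, 10829854 to 10831655), which hydroxylates alkenyl side chains, had 1.62, 1.07 and 1.12 CPM in prmt5-5 Ler and 331, 330.0 and 361 CPM in prmt5-5 Col. Its log2 fold change was -8.05 (SE 0.16, adjusted p = 8.81e-14), against -7.04 (SE 0.15) in WT. The gap between accessions was larger in prmt5-5 than in WT (interaction -1.003, SE 0.20, adjusted p = 0.0142). Of 29 aliphatic synthesis genes, 10 were higher, 6 were lower and 13 did not pass the test (median log2 0.07). That is 55.2% called, against 28.1% over all genes tested. Among chain elongation genes, MAM3 was higher at 180.5, 270.3 and 281 CPM in prmt5-5 Ler and 99.6, 111 and 116 CPM in prmt5-5 Col, while MAM1 was lower at 133, 146 and 145 CPM in prmt5-5 Ler and 303, 332 and 329.8 CPM in prmt5-5 Col. These chain elongation genes, which are similar copies, and MYB28, MYB29 and BAT5 were picked after their values were seen. MYB29, a regulator of the pathway, was lower (log2 -1.79, SE 0.15, adjusted p = 1.06e-06), while its relative MYB28 had 174, 136 and 142 CPM in prmt5-5 Ler and 153, 149 and 134 CPM in prmt5-5 Col and did not pass (adjusted p = 0.778). FMOGS-OX2, an S-oxygenase of the side chain, was lower (log2 -3.15, SE 0.15, adjusted p = 7.94e-10). BAT5, a chloroplast transporter of the pathway, was lower as well (log2 -1.12, SE 0.09, adjusted p = 3.42e-07).

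Breakdown genes differed in both directions too, but more were called lower than higher. ESP (AT1G54040, chromosome 1, 20170715 to 20173949), which steers breakdown to nitriles, had 1668, 2234 and 2116 CPM in prmt5-5 Ler and 47.7, 53.1 and 43.3 CPM in prmt5-5 Col (log2 5.38, SE 0.17, adjusted p = 8.24e-12). ESM1 (AT3G14210, chromosome 3, 4729399 to 4731847), which favours isothiocyanates, had 75.4, 62.7 and 64.2 CPM in prmt5-5 Ler and 855, 887 and 781 CPM in prmt5-5 Col (log2 -3.64, SE 0.11, adjusted p = 4.56e-12). The myrosinase TGG2 (AT5G25980, chromosome 5, 9072708 to 9075777) had 6.95, 5.84 and 6.13 CPM in prmt5-5 Ler and 785, 827 and 703 CPM in prmt5-5 Col (log2 -6.93, SE 0.19, adjusted p = 2.37e-12). These 3 genes did not overlap between the accessions, which the rule for the largest folds required of ESP and TGG2. The other major myrosinase, TGG1, did overlap. It had 1391, 1906 and 1916 CPM in prmt5-5 Ler and 1826, 1994 and 1992 CPM in prmt5-5 Col (adjusted p = 0.545). Of 19 myrosinase and specifier genes tested, 3 were higher and 8 lower (median log2 -0.25, 57.9% called against 28.1% over all genes tested). NIT1, a nitrilase, was among the lower ones (log2 -1.60, SE 0.10, adjusted p = 1.27e-08), and so was MBP1, a myrosinase-binding protein (log2 -2.39, SE 0.21, adjusted p = 7.73e-06; -0.97 in WT). NSP4, a nitrile specifier, was higher (log2 0.76, SE 0.07, adjusted p = 1.08e-06). MBP1, NSP4 and TGG1 were picked after their values were seen. The nitrilase and nitrile specifier genes have near-identical copies, so their values are uncertain.

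**Figure D1:**
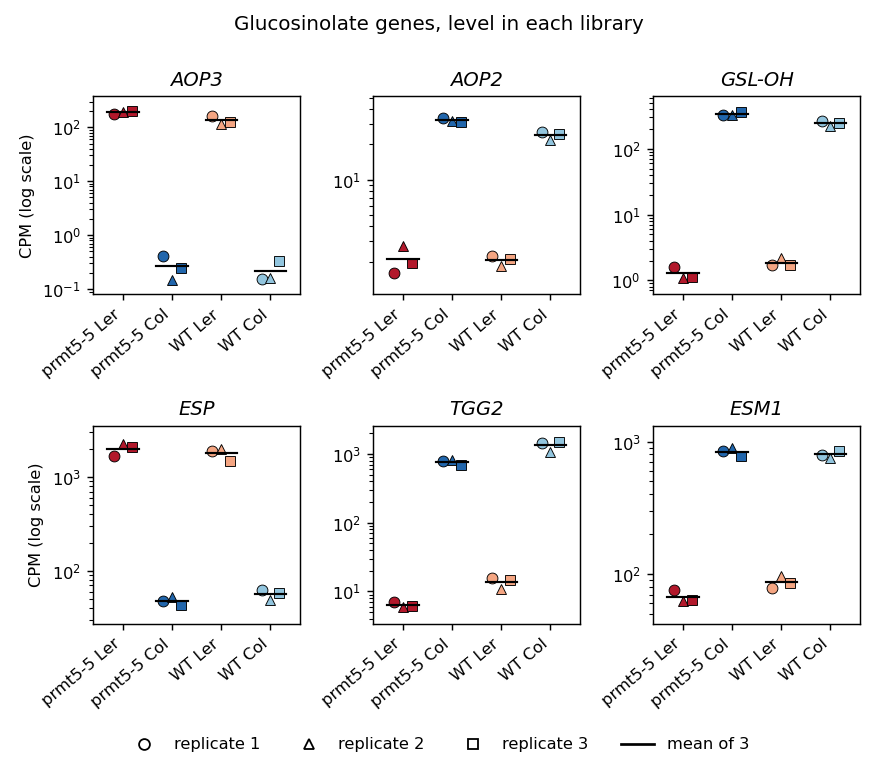
Level of 6 glucosinolate genes in each parental library, in CPM on a log axis, with replicates as symbols and the mean of 3 as a bar; groups run prmt5-5 Ler, prmt5-5 Col, WT Ler, WT Col. AOP3 and ESP sit high in both Ler groups, and AOP2, GSL-OH, TGG2 and ESM1 sit low there; the accessions do not overlap in any panel.

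Indolic glucosinolate and camalexin genes, which start from tryptophan, were called in 4 of 19, 3 higher and 1 lower (median log2 0.03), a share of 21.1% against 28.1% over all genes tested. CYP81F4, which modifies the indole ring, had 131, 125 and 122 CPM in prmt5-5 Ler and 293, 298 and 332 CPM in prmt5-5 Col. Its log2 fold change of -1.29 (SE 0.08, adjusted p = 1.17e-08) was larger in size than the -0.57 of WT (interaction -0.72, SE 0.11, adjusted p = 0.00337). CYP71A13, a camalexin enzyme, was higher (log2 1.03, SE 0.19, adjusted p = 0.00159), and so were IGMT2, an indole glucosinolate methyltransferase (log2 2.01), and CYP81F1 (log2 0.26).

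Outside this pathway the largest folds included genes without a described function and pseudogenes. AT2G25510 had 0.755, 0.284 and 0.598 CPM in prmt5-5 Ler and 381, 364 and 320.4 CPM in prmt5-5 Col, a log2 fold change of -9.32 (SE 0.30, adjusted p = 2.10e-10). The pseudogene AT1G24370 had 108, 92.3 and 86.8 CPM in prmt5-5 Ler and 0.620, 0.274 and 0.347 CPM in prmt5-5 Col (log2 7.83, SE 0.24, adjusted p = 6.60e-11). Both were picked among genes without overlap between the accessions, so their lack of overlap was fixed by the rule. AT1G66100, which encodes a thionin, a small antimicrobial peptide, was lower with 0.247, 0.284 and 0.131 CPM in prmt5-5 Ler and 75.3, 60.04 and 58.5 CPM in prmt5-5 Col. PCR1, named for cadmium resistance, was higher with 111, 408 and 277 CPM in prmt5-5 Ler and 3.33, 1.17 and 2.14 CPM in prmt5-5 Col. The plant natriuretic peptide gene PNP-A had 27.8, 112 and 90.6 CPM in prmt5-5 Ler and 2.75, 0.499 and 2.05 CPM in prmt5-5 Col (log2 5.38, SE 0.68, adjusted p = 3.47e-04). PCR1 and PNP-A were lowest among the Ler libraries in replicate 1. That library stayed above every Col library, as the rule that picked them required.

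Of 530 pseudogenes tested, 340 were called (64.2%), 169 higher and 171 lower, against 5932 of 21729 protein-coding genes (27.3%). The median absolute log2 fold change was 2.06 over pseudogenes and 0.19 over protein-coding genes. Of chloroplast genes, 2 of 83 were called (2.41%), against 28.1% over all genes tested. In 161 of the genes higher in prmt5-5 Ler the 3 Col libraries held at most 3 counts in all, 85 of them no count; in 199 of the genes lower in prmt5-5 Ler the same held of the Ler libraries, 119 with no count. Such genes have no interpretable fold, only a lower bound taken against 3 counts over the 3 libraries. SADHU5-2, a copy of a transposable element family, had 10.4, 10.08 and 8.42 CPM in prmt5-5 Ler and no count in prmt5-5 Col, and was at least 511-fold higher. The peroxidase gene AT1G05250 was at least 335-fold higher on the same scale, with 7.01, 5.67 and 6.24 CPM in prmt5-5 Ler. In the other direction, AT5G42825 had no count in prmt5-5 Ler and 15.4, 12.5 and 13.8 CPM in prmt5-5 Col, at least 869.7-fold lower. AT2G14285, annotated as a small nuclear ribonucleoprotein family gene, had no count in prmt5-5 Ler and 12.2, 12.9 and 10.06 CPM in prmt5-5 Col, at least 712-fold lower. PP2-A8, a phloem lectin, had 3 counts in prmt5-5 Ler and 18.8, 20.2 and 21.5 CPM in prmt5-5 Col; the ratio of Col to Ler was 1258 with a 95% counting interval of 430.1 to 6103, which covers counting error only.

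By absolute CPM, the largest rise was that of ESP, described above, followed by CAT3, LHCB1.1, LHCB1.2, LHCA1 and PYK10, and the largest falls were those of RBCS2B, CA1, LOX2, ESM1, TGG2 and GLDP1. CAT3, a catalase, had 2311, 4078 and 3338 CPM in prmt5-5 Ler and 1326, 1437 and 1713 CPM in prmt5-5 Col (log2 1.12, SE 0.26, adjusted p = 0.00805). PYK10, a beta-glucosidase of ER bodies, had 2829.9, 2920.2 and 2864 CPM in prmt5-5 Ler and 1893, 1999 and 2406 CPM in prmt5-5 Col (log2 0.45, SE 0.10, adjusted p = 0.00402). RBCS2B, a small subunit of Rubisco, was lower with 2393, 2069 and 2146 CPM in prmt5-5 Ler and 3744, 3972 and 3698 CPM in prmt5-5 Col (log2 -0.79, SE 0.10, adjusted p = 3.14e-05). No library of one accession reached into the range of the other for these 3 genes; the Rubisco small subunits are near-identical copies, so the level of RBCS2B is uncertain. GLDP1, a photorespiratory glycine decarboxylase subunit, was lower (log2 -0.53, SE 0.16, adjusted p = 0.0205), but its adjusted p was 0.0678 without replicate 1 of prmt5-5 Ler and 0.0930 without replicate 2 of prmt5-5 Col.

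Genes of salicylic acid defence that were called were nearly all higher in prmt5-5 Ler than in prmt5-5 Col. Salicylic acid is made in the chloroplast from isochorismate, and with the EDS1 and PAD4 node it induces pathogenesis-related proteins. Of 30 genes tested, 15 were higher and 1 lower (median log2 0.87, 53.3% called against 28.1% over all genes tested). In WT 2 were higher and 3 lower. The interaction was called for 4 of the 30, against 3.35% over all genes tested, and each of those 4 was positive. For the other members a change of the accession difference by prmt5-5 is therefore not shown. ICS1, the isochorismate synthase, had 22.3, 34.9 and 34.9 CPM in prmt5-5 Ler and 17.41, 12.1 and 13.7 CPM in prmt5-5 Col (log2 1.09, SE 0.17, adjusted p = 4.25e-04). In WT it had 14.7, 17.82 and 16.4 CPM in Ler and 15.6, 12.9 and 14.1 CPM in Col (adjusted p = 0.449; interaction adjusted p = 0.0680). The mutant accessions did not overlap, while the WT accessions lay closer together. SAG101, a partner of EDS1, had 32.6, 40.7 and 39.99 CPM in prmt5-5 Ler and 16.5, 12.7 and 14.7 CPM in prmt5-5 Col. Its log2 fold change was 1.36 (SE 0.14, adjusted p = 5.84e-06) and exceeded the 0.54 of WT (interaction adjusted p = 0.0413). DLO1, which hydroxylates salicylic acid, was higher with 25.1, 50.8 and 43.2 CPM in prmt5-5 Ler and 3.95, 4.49 and 4.99 CPM in prmt5-5 Col (log2 3.14, SE 0.40, adjusted p = 2.80e-04).

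Further members of the list, picked after their values were seen, are the marker genes of the response. PR2 had 69.6, 634 and 446 CPM in prmt5-5 Ler and 11.2, 4.14 and 24.01 CPM in prmt5-5 Col (log2 4.84, SE 0.92, adjusted p = 0.00430). PR5 had 22.3, 248 and 172 CPM in prmt5-5 Ler and 8.74, 6.41 and 7.72 CPM in prmt5-5 Col (log2 4.27, SE 0.80, adjusted p = 0.00403). In both, replicate 1 of prmt5-5 Ler lay well below its partners but above all Col libraries. PR1 had 1.54, 31.8 and 14.3 CPM in prmt5-5 Ler and 0.950, 2.29 and 2.14 CPM in prmt5-5 Col and did not pass the test (adjusted p = 0.144), its groups overlapping. FMO1, which makes N-hydroxypipecolic acid, had 5.19, 12.6 and 7.86 CPM in prmt5-5 Ler and 1.78, 0.649 and 1.03 CPM in prmt5-5 Col, with an interaction of 3.96 (SE 0.91, adjusted p = 0.0468). NIMIN2, which binds NPR1, was higher as well (log2 1.81, SE 0.31, adjusted p = 6.84e-04; interaction adjusted p = 0.0375). The summed level of the list was 569, 1686 and 1329.5 CPM in prmt5-5 Ler and 569.8, 463 and 516 CPM in prmt5-5 Col, so replicate 1 of prmt5-5 Ler lay within the Col range by this sum. Without it, 19 members were higher and 1 lower. Counts of this list without another library are not given.

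Cysteine-rich receptor kinases, a family that responds to pathogens and reactive oxygen, were called in 21 of 42 genes tested, 16 higher and 5 lower (median log2 0.26). That is 50% called, against 28.1% over all genes tested. In WT 6 were higher and 9 lower. The interaction was called for 5 of the 42, all positive, against 3.35% over all genes tested. CRK15 had 7.32, 11.9 and 12.9 CPM in prmt5-5 Ler and 1.42, 0.449 and 0.694 CPM in prmt5-5 Col, against 0.198, 0.877 and 0.980 CPM in WT Ler and 1.16, 1.49 and 0.904 CPM in WT Col. CRK23 had 5.00, 14.3 and 16.4 CPM in prmt5-5 Ler and 1.07, 0.848 and 1.34 CPM in prmt5-5 Col, against 0.180, 0.410 and 0.477 CPM in WT Ler and 0.832, 0.903 and 0.818 CPM in WT Col. Both, singled out after their values were seen, were thus highest in the 3 prmt5-5 Ler libraries (interaction 4.44, SE 0.69, adjusted p = 0.00724 for CRK15, and 4.72, SE 0.65, adjusted p = 0.00356 for CRK23). CRK8 was higher in the mutant (log2 3.66, SE 0.35, adjusted p = 6.90e-06) and in WT (log2 1.84). CRK30 was higher too (log2 2.31, SE 0.14, adjusted p = 9.98e-09), and CRK29 was lower (log2 -0.83, SE 0.09, adjusted p = 6.33e-06). CRK4 was close to absent in Ler, with 0.110, 0 and 0.112 CPM in prmt5-5 Ler and 23.4, 11.9 and 16.4 CPM in prmt5-5 Col.

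NLR genes encode intracellular immune receptors, many in clusters that differ between accessions. Of 38 tested, 10 were higher and 14 lower (median log2 -0.02, 63.2% called against 28.1% over all genes tested). In WT 2 were higher and 19 lower. CSA1 had 0.0549, 0.0334 and 0 CPM in prmt5-5 Ler and 20.5, 21.2 and 21.1 CPM in prmt5-5 Col (log2 -9.25, SE 0.27, adjusted p = 2.95e-12), and its neighbour CHS3 had 0.0824, 0.0334 and 0.262 CPM in prmt5-5 Ler and 61.2, 62.7 and 66.5 CPM in prmt5-5 Col. In WT Ler both receptors were close to 0 as well, with at most 0.344 CPM. SNC1, which lies in a cluster of similar genes, had 33.8, 37.5 and 36.8 CPM in prmt5-5 Ler and 170.1, 179.7 and 179.5 CPM in prmt5-5 Col (log2 -2.29, SE 0.07, adjusted p = 6.08e-12); it belongs to the salicylic acid list too and is its only lower member. RPP7 (AT1G58602, chromosome 1, 21746354 to 21766048), a receptor for downy mildew, changed order: it had 206, 169 and 181 CPM in prmt5-5 Ler and 137, 137 and 129.9 CPM in prmt5-5 Col, but 177, 163 and 173 CPM in WT Ler and 276, 282 and 286 CPM in WT Col. The log2 fold change was 0.46 in prmt5-5 (SE 0.08, adjusted p = 5.27e-04) and -0.72 in WT, and the interaction was 1.18 (SE 0.11, adjusted p = 8.96e-05).

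Phosphate starvation genes formed another group that was higher in prmt5-5 Ler. Plants short of phosphate induce PHT1 transporters, SPX proteins that sense inositol pyrophosphates, non-coding RNAs that sequester miR399, and enzymes that replace phospholipids with galacto- and sulfolipids. Of 29 genes, 18 were higher and 1 lower (median log2 0.66, 65.5% called against 28.1% over all genes tested). In WT 9 were higher and 2 lower. The interaction was called for 0 of the 29 by edgeR, for 10 at an unadjusted p under 0.05, all positive, and for 2 by DESeq2. PHT1;2 (AT5G43370, chromosome 5, 17415698 to 17417972) had 23.46, 31.1 and 30.3 CPM in prmt5-5 Ler and 0.174, 0.0998 and 0.377 CPM in prmt5-5 Col (log2 6.88, SE 0.36, adjusted p = 3.03e-08), and it had 22.0, 19.4 and 28.2 CPM in WT Ler and 0.738, 0.186 and 0.459 CPM in WT Col. PHT1;1 and PHT1;3 are near-identical copies next to it, so reads can be split among them; PHT1;1 was the 1 lower member of the list (log2 -0.48, SE 0.16, adjusted p = 0.0450). AT4, a non-coding RNA that binds miR399, had 29.8, 44.3 and 44.5 CPM in prmt5-5 Ler and 7.95, 10.5 and 8.84 CPM in prmt5-5 Col (log2 2.12, SE 0.31, adjusted p = 6.14e-04). Its relative IPS1 had 4.45, 4.14 and 5.604 CPM in prmt5-5 Ler and 0.737, 0.998 and 0.573 CPM in prmt5-5 Col (log2 2.65, SE 0.37, adjusted p = 1.71e-04). PHT1;8 was higher on a low level (log2 4.69, SE 0.45, adjusted p = 2.24e-06).

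In PHT1;2, AT4, IPS1 and PHT1;8 no Ler library overlapped with a Col library. SPX1, named after its values were seen, had 35.7, 86.4 and 74.2 CPM in prmt5-5 Ler and 18.8, 20.8 and 16.0 CPM in prmt5-5 Col (log2 1.82, SE 0.29, adjusted p = 0.00103), replicate 1 being the lowest Ler library. The summed level of the list was 841, 1299 and 1206 CPM in prmt5-5 Ler and 752, 846 and 819 CPM in prmt5-5 Col, and replicate 1 of prmt5-5 Ler again fell within the Col range. Without it 20 members were higher. Without replicate 2 of prmt5-5 Ler 11 were higher.

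The factor PHR1 binds the P1BS motif GNATATNC, which reads the same on both strands, before phosphate starvation genes. In the 300 bases before the annotated start, taken from RefSeq's TAIR10.1 Col genome, 5 of the 18 higher members (27.8%) and 2 of the other 11 (18.18%) held the motif, against 1486 of 22722 windows of all genes tested (6.54%). The Ler sequence was not used here. The higher members with the motif were PHT1;2, SPX3 (log2 1.86, adjusted p = 0.0112), AT4, MGD2 (log2 0.34, adjusted p = 0.0480) and SRG3 (log2 1.72, adjusted p = 0.00313); the windows of PHT1;1, PHT1;3, IPS1 and SPX1 did not hold these letters. A match is a description of the letters and not a site. The windows of 3 genes are shown 5′ to 3′ toward the gene, with the motif in capitals, because these genes had large differences and a match. They are chr5:894282-894581 (plus strand) for AT4, chr5:17415398-17415697 (plus strand) for PHT1;2 and chr2:18606110-18606409 (plus strand) for SPX3, a sensor of the SPX family.
AT4: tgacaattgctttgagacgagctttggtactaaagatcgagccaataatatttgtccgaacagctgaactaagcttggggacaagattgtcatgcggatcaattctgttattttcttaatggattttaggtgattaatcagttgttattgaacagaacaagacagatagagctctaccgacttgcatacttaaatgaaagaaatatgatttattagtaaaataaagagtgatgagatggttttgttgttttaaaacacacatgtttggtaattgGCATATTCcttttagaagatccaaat
PHT1;2: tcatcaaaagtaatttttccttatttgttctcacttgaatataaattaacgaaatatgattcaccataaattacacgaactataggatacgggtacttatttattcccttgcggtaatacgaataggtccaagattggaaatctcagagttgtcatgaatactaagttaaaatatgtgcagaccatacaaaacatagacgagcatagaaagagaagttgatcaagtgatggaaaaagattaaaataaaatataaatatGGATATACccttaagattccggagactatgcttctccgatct
SPX3: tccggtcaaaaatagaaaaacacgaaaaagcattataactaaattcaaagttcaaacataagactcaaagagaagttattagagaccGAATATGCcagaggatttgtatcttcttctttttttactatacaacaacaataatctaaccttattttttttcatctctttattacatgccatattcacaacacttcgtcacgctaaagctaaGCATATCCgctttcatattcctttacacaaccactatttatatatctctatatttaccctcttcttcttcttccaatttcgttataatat

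**Figure D2:**
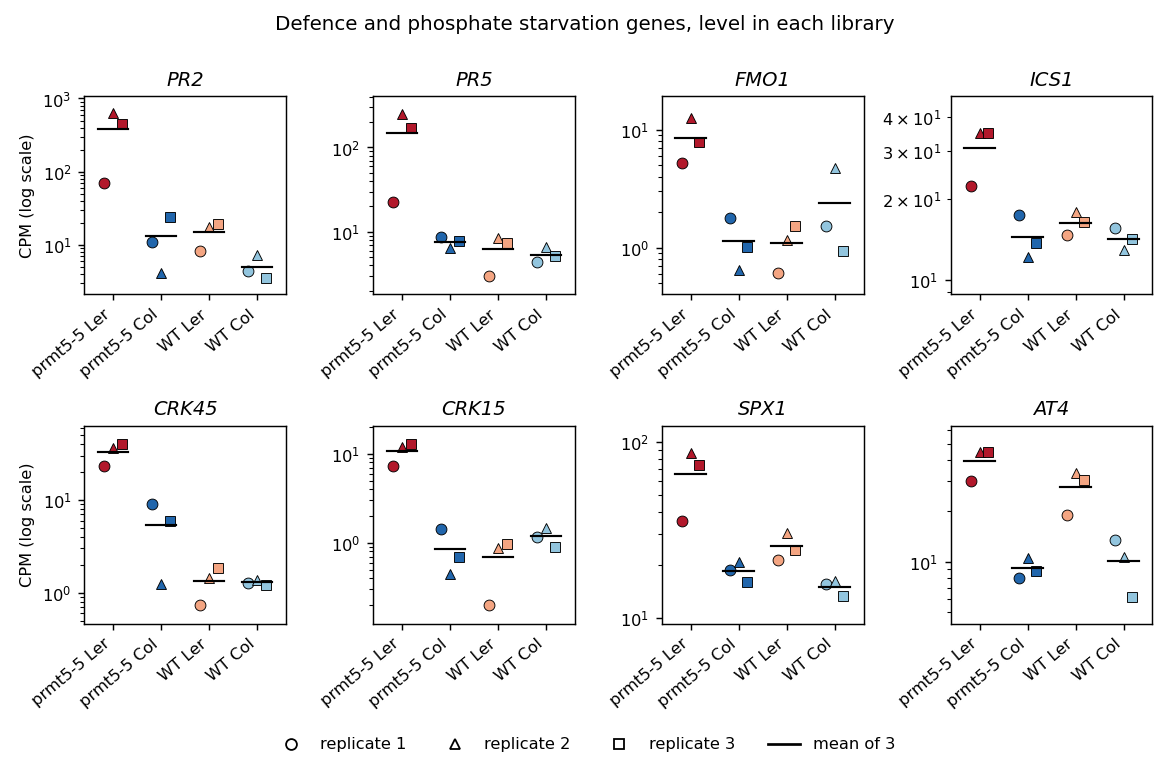
Level of 8 defence and phosphate starvation genes in each parental library, in CPM on a log axis, with replicates as symbols and the mean of 3 as a bar; groups run prmt5-5 Ler, prmt5-5 Col, WT Ler, WT Col. PR2, PR5, FMO1, ICS1, CRK45, CRK15 and SPX1 are highest in prmt5-5 Ler, where replicate 1 is the lowest library, and AT4 is high in both Ler groups.

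Flavonoid and anthocyanin genes were lower in prmt5-5 Ler. The pathway runs from chalcone synthase (CHS) through F3H to the flavonols and anthocyanins and is switched on by the PAP1 MYB factor with bHLH partners. Of 24 genes, 15 were lower and 1 higher (median log2 -0.78, 66.7% called against 28.1% over all genes tested). In WT 18 were lower and 1 higher. CHIL, which aids chalcone synthase, had 59.4, 63.2 and 74.7 CPM in prmt5-5 Ler and 129, 138 and 109 CPM in prmt5-5 Col (log2 -0.93, SE 0.13, adjusted p = 7.38e-05). F3H had 56.4, 67.9 and 74.0 CPM in prmt5-5 Ler and 121, 132 and 109.8 CPM in prmt5-5 Col (log2 -0.87, SE 0.15, adjusted p = 5.75e-04). The regulator PAP1 had 2.198, 3.25 and 3.77 CPM in prmt5-5 Ler and 12.3, 16.6 and 6.50 CPM in prmt5-5 Col (log2 -1.94, SE 0.29, adjusted p = 2.94e-04). The accessions did not overlap in any of these 3. UGT78D1, which adds rhamnose to flavonols, was lower by less in prmt5-5 (log2 -0.63) than in WT (log2 -1.24), an interaction of 0.61 (SE 0.16, adjusted p = 0.0482). The 1 higher member was MYBL2, a repressor of the pathway, with 28.4, 18.18 and 14.7 CPM in prmt5-5 Ler and 8.43, 9.48 and 11.6 CPM in prmt5-5 Col (log2 1.05, SE 0.24, adjusted p = 0.00811).

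Jasmonate genes that were called were mostly lower too. Jasmonate is made from linolenic acid by lipoxygenases, AOS, AOC and OPR3 and controls defence against chewing insects. Of 31 genes, 13 were lower, 2 were higher and 16 did not pass (median log2 -0.18). That is 48.4% called, against 28.1% over all genes tested. In WT 7 were lower and 2 higher. VSP2, a vegetative storage protein induced by jasmonate, had 20.5, 22.6 and 20.6 CPM in prmt5-5 Ler and 203, 189 and 159.8 CPM in prmt5-5 Col (log2 -3.11, SE 0.16, adjusted p = 3.03e-09). VSP1 was lower too, with 10.2, 14.97 and 12.5 CPM in prmt5-5 Ler and 47.8, 37.9 and 32.1 CPM in prmt5-5 Col. Among synthesis enzymes, AOS had 129, 164 and 152 CPM in prmt5-5 Ler and 246, 262 and 237 CPM in prmt5-5 Col (log2 -0.74, SE 0.12, adjusted p = 3.14e-04). All 3 were separated without overlap between the accessions. OPR3 was lower (log2 -0.49, SE 0.11, adjusted p = 0.00362), and so was LOX2 (log2 -1.10, SE 0.29, adjusted p = 0.0162). Without replicate 2 of prmt5-5 Col 8 members were lower, and the adjusted p of LOX2 was 0.0542. Without replicate 1 of prmt5-5 Ler 11 members were lower and 4 higher.

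Of the cold and drought genes called, most were lower in prmt5-5 Ler, and for several the difference was larger in the mutant than in WT. The COR and KIN genes encode protective proteins under the CBF factors, and the RD and LEA genes respond to abscisic acid. Of 29 genes, 13 were lower and 5 higher (median log2 -0.40, 62.1% called against 28.1% over all genes tested). In WT 7 were lower and 9 higher. The interaction was called for 9 of the 29, all negative, against 3.35% over all genes tested. COR15B had 21.7, 17.1 and 19.3 CPM in prmt5-5 Ler and 51.1, 45.9 and 50.5 CPM in prmt5-5 Col, while WT had 30.8, 34.7 and 28.0 CPM in Ler and 35.5, 19.8 and 31.6 CPM in Col. The mutant accessions stood apart and the WT accessions overlapped (log2 -1.34, SE 0.17, adjusted p = 1.09e-04 in prmt5-5; 0.10 in WT; interaction adjusted p = 0.00980). KIN2 had 61.1, 31.2 and 44.1 CPM in prmt5-5 Ler and 148, 129 and 154 CPM in prmt5-5 Col, with an interaction of -1.34 (SE 0.28, adjusted p = 0.0232). The dehydrin gene ERD10 had 58.3, 54.1 and 59.1 CPM in prmt5-5 Ler and 97.6, 94.6 and 109 CPM in prmt5-5 Col (interaction -0.50, SE 0.12, adjusted p = 0.0413). KIN1 was lower in the mutant (log2 -1.13) and in WT (log2 -0.85). CBF3, the upstream factor, singled out after its values were seen, changed order: 0.549, 0.551 and 0.560 CPM in prmt5-5 Ler and 2.02, 1.45 and 1.24 CPM in prmt5-5 Col, but 1.41, 1.79 and 1.77 CPM in WT Ler and 0.942, 1.12 and 1.13 CPM in WT Col (interaction -2.13, SE 0.33, adjusted p = 0.00356).

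Flowering regulators differed by a few genes of each class. FLC, a MADS-box repressor of flowering that FRI upholds and the autonomous pathway lowers, had 0.137, 0.0334 and 0.187 CPM in prmt5-5 Ler and 1.88, 1.45 and 2.05 CPM in prmt5-5 Col. It was low in Ler and higher in every Col library, with a log2 fold change of -3.90 (SE 0.61, adjusted p = 2.75e-04) against -2.16 in WT, and the interaction did not pass (adjusted p = 0.356). FRI had 1.99, 1.37 and 1.53 CPM in prmt5-5 Ler and 7.29, 8.01 and 7.16 CPM in prmt5-5 Col (log2 -2.19, SE 0.14, adjusted p = 3.02e-08). The FLC relatives MAF4 (log2 -1.67, SE 0.28, adjusted p = 4.75e-04) and MAF1 (log2 -0.65, SE 0.11, adjusted p = 6.48e-04) were lower. Of the 18 genes of this list, 6 were lower and 1 was higher (median log2 -0.15). That is 38.9% called, against 28.1% over all genes tested. Without replicate 1 of prmt5-5 Ler 6 were lower and 0 higher. Of 11 other floral repressors, TOE2 (log2 -0.39, adjusted p = 5.38e-04) and SMZ (log2 -0.63, adjusted p = 0.00100), both AP2-like factors, were lower, and 9 did not pass the test.

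Among 19 floral promoters, 4 were higher and 4 lower (median log2 0.16, 42.1% called against 28.1% over all genes tested). SOC1, a floral integrator that FLC represses, had 38.8, 35.5 and 31.0 CPM in prmt5-5 Ler and 18.6, 18.11 and 22.1 CPM in prmt5-5 Col (log2 0.84, SE 0.10, adjusted p = 1.35e-05). AGL24, its partner, was lower with 3.91, 4.49 and 5.77 CPM in prmt5-5 Ler and 9.44, 10.98 and 10.12 CPM in prmt5-5 Col (log2 -1.11, SE 0.13, adjusted p = 1.15e-05). SPL4 (log2 -1.93) and FD (log2 -0.60) were lower too. FT, the florigen, named after its values were seen, changed order, with 1.57, 2.04 and 1.92 CPM in prmt5-5 Ler and 1.26, 1.02 and 1.15 CPM in prmt5-5 Col, but 1.23, 2.24 and 1.51 CPM in WT Ler and 2.57, 3.40 and 2.27 CPM in WT Col. In the mutant its adjusted p was 0.0488, and the interaction was 1.39 (SE 0.34, adjusted p = 0.0374). The call of FT in the mutant was kept in 4 of the 12 fits that left out a library, with adjusted p up to 0.144. Of 12 autonomous pathway genes, GRP8, an RNA-binding clock output gene, was higher (log2 0.25, adjusted p = 0.0308) and FLD, a histone demethylase homologue, was lower (log2 -0.33, adjusted p = 0.0144). The share called was 16.7%, against 28.1% over all genes tested.

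Clock genes were called in both directions, 6 higher and 5 lower of 28 (median log2 0.04), 39.3% against 28.1% over all genes tested. An interaction was called for 11 of the 28, 4 positive and 7 negative, against 3.35% over all genes tested. The clock couples morning factors, the pseudo-response regulators and the evening complex in a loop. Seedlings were grown in continuous light and collected at a single time, so a level cannot be told apart from a phase. PRR7, a pseudo-response regulator, had 134, 118 and 102 CPM in prmt5-5 Ler and 45.0, 42.0 and 47.9 CPM in prmt5-5 Col (log2 1.39, SE 0.15, adjusted p = 1.31e-05). ELF4, of the evening complex, was lower (log2 -0.56, SE 0.08, adjusted p = 7.28e-05), and so was JMJD5 (log2 -0.76), while LNK4 was higher (log2 0.93). The morning gene CCA1, picked after its values were seen, was higher with 92.4, 77.6 and 80.9 CPM in prmt5-5 Ler and 61.6, 76.7 and 55.0 CPM in prmt5-5 Col. In WT it was lower, with 80.9, 71.6 and 69.2 CPM in Ler and 142, 117 and 145 CPM in Col, and the interaction was 1.24 (SE 0.17, adjusted p = 0.00244). Without replicate 1 of prmt5-5 Ler the mutant difference of CCA1 had an adjusted p of 0.104, and 4 clock genes were higher and 4 lower.

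Genes of the stomatal lineage were higher in prmt5-5 Ler. SPCH, MUTE and FAMA with SCRM and SCRM2 drive the divisions that make guard cells, and ERECTA family receptors with TMM and the EPF peptides restrain them. Of 15 stomatal markers, 10 were higher and 1 lower (median log2 0.61, 73.3% called against 28.1% over all genes tested). This was much as in WT, where 9 were higher and 1 lower. An interaction was called for 0 by edgeR, for 3 at an unadjusted p under 0.05 and for 0 by DESeq2. MUTE had 4.44, 3.97 and 5.29 CPM in prmt5-5 Ler and 1.71, 1.80 and 1.51 CPM in prmt5-5 Col (log2 1.45, SE 0.16, adjusted p = 8.69e-06). SCRM2 had 131, 82.3 and 94.3 CPM in prmt5-5 Ler and 44.9, 46.3 and 45.9 CPM in prmt5-5 Col (log2 1.16, SE 0.14, adjusted p = 3.86e-05). SCRM was higher (log2 0.61), and the 1 lower marker was KAT2, a potassium channel of guard cells (log2 -1.13, SE 0.14, adjusted p = 3.89e-05). The summed level of the markers was 427, 344 and 384 CPM in prmt5-5 Ler and 262, 255 and 238 CPM in prmt5-5 Col, without overlap.

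ERECTA itself (ER, AT2G26330, chromosome 2, 11208080 to 11214662) had 81.5, 69.0 and 77.5 CPM in prmt5-5 Ler and 77.1, 80.2 and 73.5 CPM in prmt5-5 Col and was not called (adjusted p = 0.905), so its RNA level does not mark the Ler mutation. Of 15 ERECTA receptors and ligands, 4 were higher and 1 lower (median log2 0.16), 33.3% called against 28.1% over all genes tested. Its relative ERL1 had 8.80, 9.26 and 11.8 CPM in prmt5-5 Ler and 4.34, 4.69 and 4.58 CPM in prmt5-5 Col (log2 1.13, SE 0.15, adjusted p = 4.04e-05). ERL2 (log2 0.53), the receptor-like protein gene TMM (log2 0.95) and the peptide gene EPF2 (log2 0.84) were higher too; TMM and EPF2 are members of the stomatal list as well.

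Other organ markers were called in both directions. Of 26 root hair and root markers, 2 were higher and 2 lower (median log2 -0.24, against 0.30 in WT). That is 15.4% called, against 28.1% over all genes tested. By DESeq2 2 were higher and 5 lower. Their interaction was called by edgeR for 1, which was negative. At an unadjusted p under 0.05 it was negative for 10 and positive for 2, and by DESeq2 negative for 5 and positive for 1. The sum of the root markers was 236, 289 and 291 CPM in prmt5-5 Ler and 277, 334 and 345 CPM in prmt5-5 Col. EXPA7, an expansin of root hairs, was lower with 2.36, 3.99 and 4.05 CPM in prmt5-5 Ler and 8.88, 10.7 and 11.1 CPM in prmt5-5 Col (log2 -1.57, SE 0.22, adjusted p = 1.24e-04), and RSL4, a root hair factor, was lower too (log2 -0.99). Among the 2 higher root markers was PHT1;9, also a member of the phosphate list (log2 1.11, adjusted p = 0.0307). Of 7 seed storage and maturation genes tested, 1 was higher and 1 lower, 28.6% called against 28.1% over all genes tested. Their sum was 3.42, 10.6 and 2.82 CPM in prmt5-5 Ler and 2.09, 1.92 and 2.04 CPM in prmt5-5 Col. Replicate 2 of prmt5-5 Ler stood out, with 0.275, 3.96 and 0.0374 CPM of the storage protein gene CRA1 over the 3 libraries. Of 12 floral organ genes, 3 were higher and 2 lower, all on a low level (41.7% called against 28.1% over all genes tested). SEP4 had 0.385, 0.334 and 0.243 CPM in prmt5-5 Ler and 9.44, 10.5 and 9.88 CPM in prmt5-5 Col (log2 -4.92, SE 0.20, adjusted p = 1.68e-10). SEP3 had 5.58, 3.07 and 2.47 CPM in prmt5-5 Ler and 0.368, 0.798 and 0.603 CPM in prmt5-5 Col (log2 2.68, SE 0.33, adjusted p = 2.81e-05). The floral meristem gene AP1 was close to absent, with 0.0824, 0.100 and 0.0374 CPM in prmt5-5 Ler and 0, 0.0748 and 0.0302 CPM in prmt5-5 Col. The part of organ composition in the results above was not tested.

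Sm, LSm and snRNP assembly genes, whose products include proteins that PRMT5 methylates, were called higher in 13 of 32 and lower in 1 (median log2 0.19), against 14% higher and 14.1% lower over all genes tested. The folds were under 2 in each. GEMIN2, an snRNP assembly factor, had 31.2, 29.8 and 31.0 CPM in prmt5-5 Ler and 20.8, 18.6 and 20.2 CPM in prmt5-5 Col (log2 0.62, SE 0.08, adjusted p = 4.27e-05). The assembly chaperone ICLN (log2 0.35, SE 0.08, adjusted p = 0.00661) and SmD2a (log2 0.45, SE 0.09, adjusted p = 0.00165) were higher. LUC7RL, related to a U1 snRNP protein, was the 1 lower member (log2 -0.39, SE 0.07, adjusted p = 5.12e-04; interaction -0.40, adjusted p = 0.0318). The count of higher members was 8 without replicate 1 of prmt5-5 Ler, 5 without replicate 2 and 7 without replicate 3 of prmt5-5 Col. Of 35 SR proteins and other splicing factors, 3 were higher and 32 did not pass (median log2 0.10). That is 8.57% called, against 28.1% over all genes tested. The 3, which were PRL1 (log2 0.19, adjusted p = 0.0369), RS41 (log2 0.18, adjusted p = 0.0379) and SCL30 (log2 0.24, adjusted p = 0.0389), each lost the call in at least 6 of the 12 fits that left out a library. Of 9 arginine methyltransferases, PRMT1A (log2 0.67, SE 0.12, adjusted p = 6.82e-04) and PRMT1B (log2 0.18, SE 0.05, adjusted p = 0.0226) were higher. The share called was 22.2%, against 28.1% over all genes tested.

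Of 24 RNA silencing genes, 5 were higher and 2 lower (median log2 -0.01), 29.2% called against 28.1% over all genes tested. SGS3, which acts in trans-acting siRNA synthesis, had 41.4, 51.3 and 49.7 CPM in prmt5-5 Ler and 22.6, 26.3 and 23.602 CPM in prmt5-5 Col (log2 0.97, SE 0.10, adjusted p = 6.25e-06). AGO7, the argonaute of that pathway, had 12.8, 17.5 and 17.3 CPM in prmt5-5 Ler and 5.99, 5.09 and 7.00 CPM in prmt5-5 Col, with a larger accession difference in prmt5-5 (log2 1.39) than in WT (log2 0.42; interaction adjusted p = 0.0207). NRPE1, the largest subunit of RNA polymerase V, was higher by less in prmt5-5 (log2 0.51) than in WT (log2 0.93; interaction adjusted p = 0.0374), and NRPD1, that of RNA polymerase IV, was lower (log2 -0.91, SE 0.15, adjusted p = 3.40e-04). Of 19 DNA damage genes, 4 were higher and 3 lower (median log2 -0.04), 36.8% called against the same background. KRP6, a cell cycle inhibitor, had 12.8, 15.1 and 12.5 CPM in prmt5-5 Ler and 7.71, 7.21 and 6.95 CPM in prmt5-5 Col (log2 0.89, SE 0.09, adjusted p = 5.60e-06). The kinases ATR (log2 -0.76) and ATM (log2 -0.31) were lower, and the poly(ADP-ribose) polymerase PARP2 was higher (log2 0.48).

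Few photosynthesis and auxin genes were called. Of 41 light-harvesting and photosystem genes, 4 were higher and 1 lower (median log2 0.09, 12.2% called against 28.1% over all genes tested). LHCB1.1 had 3846, 3137 and 2829 CPM in prmt5-5 Ler and 1957, 2222 and 1881 CPM in prmt5-5 Col (log2 0.70, SE 0.17, adjusted p = 0.00660). LHCA1 had 3572, 2994 and 2830.4 CPM in prmt5-5 Ler and 2069, 2269 and 2014 CPM in prmt5-5 Col (log2 0.56, SE 0.14, adjusted p = 0.00905). The LHCB genes are near-identical copies, and without replicate 1 of prmt5-5 Ler 2 members were higher. Of 31 early auxin genes, 4 were higher and 2 lower (median log2 0.06), 19.4% called against 28.1% over all genes tested. The genes called included SAUR10 (log2 2.03), IAA14 (log2 -0.68), IAA6 (log2 0.97) and GH3.5 (log2 -0.43). Without replicate 1 of prmt5-5 Ler 2 auxin genes were higher and 6 lower. Of 17 heat shock genes, 5 were higher and 4 lower (median log2 0.47, 52.9% called against 28.1% over all genes tested). The heat shock factor gene HSFB1 was higher with 63.6, 68.3 and 62.4 CPM in prmt5-5 Ler and 46.2, 46.2 and 47.8 CPM in prmt5-5 Col, and the chaperone HSP101 was lower with 10.99, 10.4 and 9.55 CPM in prmt5-5 Ler and 14.0, 13.8 and 16.1 CPM in prmt5-5 Col. HSP22 had 0.467, 0.434 and 0.299 CPM in prmt5-5 Ler and no count in prmt5-5 Col, at least 21.5-fold higher.

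**Figure D3:**
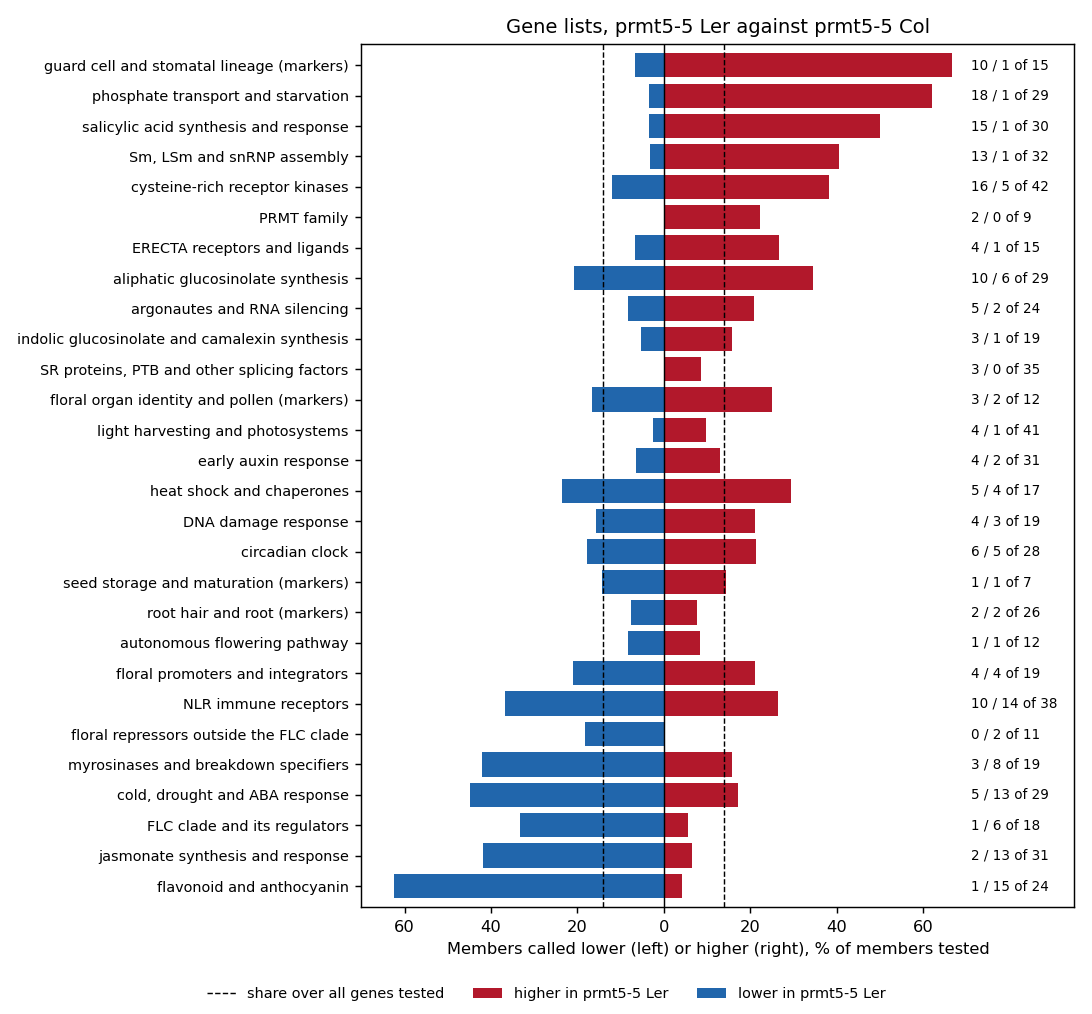
Share of the tested members of each of 28 gene lists that were called lower (bars to the left) or higher (bars to the right) in prmt5-5 Ler than in prmt5-5 Col, in percent, with the counts of higher and lower members at the right edge. The dashed lines mark the shares over all genes tested, 14.1% lower and 14% higher. Stomatal, phosphate and salicylic acid lists reach furthest to the right. The flavonoid, cold, myrosinase and jasmonate lists reach furthest to the left.

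The accession difference was similar in prmt5-5 and WT for most genes. Both comparisons called 3897 genes, 60.6% of those called in prmt5-5 and 57.1% of those called in WT, and 3822 of these had the same direction. Over genes, the log2 fold changes in prmt5-5 and in WT had a Pearson correlation of 0.877 and a Spearman correlation of 0.606, a description across genes; the fold changes rest on different libraries, and the spread was estimated over all 12. A gene called in prmt5-5 and not in WT is not thereby shown to differ: of 2537 such genes, 1936 had the same sign in WT, and the interaction was called for 212 (8.36%). Of the 769 genes with an interaction, 365 were positive and 404 negative. That count depended on single libraries. It was 1744 without replicate 1 of prmt5-5 Ler, 460 without replicate 2 and 454 without replicate 3, 410 without replicate 3 of prmt5-5 Col, and 380 without replicate 3 of WT Col.

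Genes called in opposite directions in prmt5-5 and WT numbered 75. The interaction was called for all 75, but it is the difference of these 2 fold changes, so the selection nearly fixed that outcome. RPP7, described above, was one. AT4G02420, a lectin receptor kinase, had 17.802, 24.1 and 23.4 CPM in prmt5-5 Ler and 14.9, 13.6 and 13.2 CPM in prmt5-5 Col, but 11.1, 16.4 and 14.5 CPM in WT Ler and 23.7, 21.7 and 23.7 CPM in WT Col (interaction 1.37, SE 0.19, adjusted p = 0.00248). AT1G62850, a peptide chain release factor gene, had 41.5, 37.7 and 39.3 CPM in prmt5-5 Ler and 27.0, 27.9 and 25.7 CPM in prmt5-5 Col, but 21.3, 22.3 and 21.8 CPM in WT Ler and 26.1, 26.2 and 26.6 CPM in WT Col (interaction 0.83, SE 0.09, adjusted p = 2.45e-04). AT5G03495, which encodes an RNA-binding protein, had 2.94, 3.52 and 4.11 CPM in prmt5-5 Ler and 1.396, 1.32 and 0.875 CPM in prmt5-5 Col, but 0.0721, 0 and 0.106 CPM in WT Ler and 1.88, 1.54 and 1.78 CPM in WT Col. In each of these 3 the accessions changed places without overlap. The count of 75 became 176 without replicate 1, 47 without replicate 2 and 44 without replicate 3 of prmt5-5 Ler, 44 without replicate 2 and 36 without replicate 3 of prmt5-5 Col, 49 without replicate 2 of WT Ler and 39 without replicate 3 of WT Col.

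Among the largest interactions were genes that had RNA in prmt5-5 Ler alone. The pseudogene AT5G28053 had 35.1, 38.2 and 35.2 CPM in prmt5-5 Ler, 0, 0.0499 and 0.0302 CPM in prmt5-5 Col, 0.144, 0.261 and 0.318 CPM in WT Ler and 0, 0 and 0.0574 CPM in WT Col. It was thus high in the 3 prmt5-5 Ler libraries and close to absent in the other 9 (interaction adjusted p = 0.0193). AT1G10880, a glycosyltransferase gene, followed the same order with 2.4999, 1.70 and 2.80 CPM in prmt5-5 Ler, 0.0194, 0 and 0 CPM in prmt5-5 Col, 0.0721, 0.0746 and 0.106 CPM in WT Ler and 0, 0.0531 and 0.0430 CPM in WT Col. The pseudogene AT4G06506 was low but followed it too, with 2.43, 4.24 and 3.16 CPM in prmt5-5 Ler, 0, 0.0998 and 0 CPM in prmt5-5 Col, 0, 0 and 0 CPM in WT Ler and 0.0942, 0.0531 and 0 CPM in WT Col. TPS03, a terpene synthase, had 0.137, 0.100 and 0.149 CPM in prmt5-5 Ler and 1.03, 0.973 and 0.603 CPM in prmt5-5 Col, but 0.469, 0.672 and 0.477 CPM in WT Ler and 0.282, 0.186 and 0.115 CPM in WT Col. In TPS03 the accessions again changed places (interaction -4.19, SE 0.57, adjusted p = 0.00188).

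**Figure D4:**
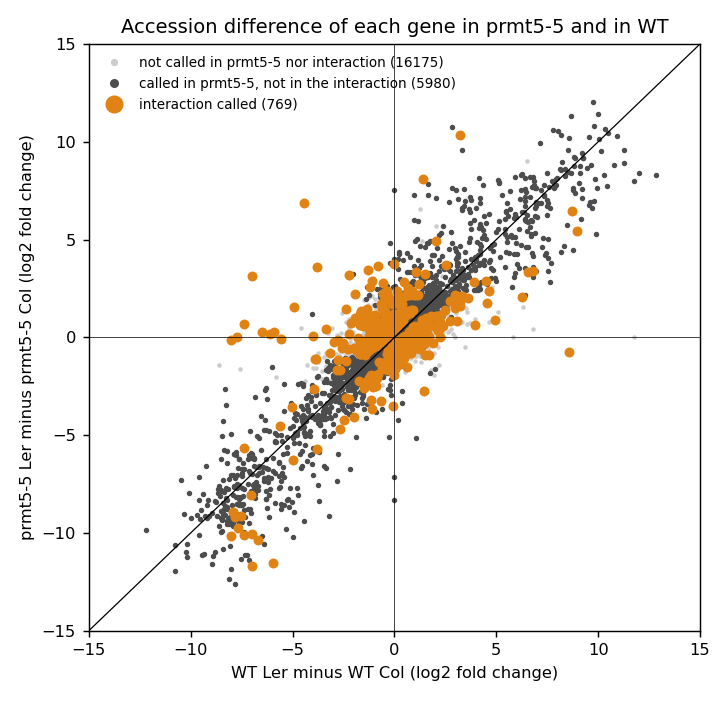
Log2 fold change of each tested gene in prmt5-5 (Ler minus Col, vertical axis) against WT (Ler minus Col, horizontal axis); grey genes were called neither in prmt5-5 nor in the interaction, dark genes were called in prmt5-5 but not in the interaction, and orange genes were the 769 with an interaction. Most points lie along the diagonal line of equal difference, and the orange points lie off it; fitted values of genes with no count in a group depend on the prior count and are not bounds.

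Parts of the genome gave few Ler allele counts in the prmt5-5 F1 hybrids, and there fewer genes were called between the mutant accessions. The 6 prmt5-5 F1 libraries and the 6 WT F1 libraries count the Ler and Col allele of each gene apart. In bins of 200 kb, the median Ler share of a gene's allele counts was below 40% in 3 regions, in both crosses of prmt5-5 and in neither cross of WT. On chromosome 4, from 14.8 to 16.2 Mb and around PRMT5, it was 0.139% to 0.870% (7 bins, 214 genes with enough allele counts). On chromosome 3, from 0 to 1.4 Mb, it was 21.9% to 30.4% (7 bins, 293 genes). On chromosome 2, from 6.2 to 6.8 Mb, it was 10% to 14.2% (3 bins, 42 genes). In WT F1 the shares of these bins were 45.3% to 52.3%. These shares pool 3 libraries of a cross, and outside chromosome 4 the prmt5-5 F1 libraries differed from each other. The median share over the genes of a region was 0% to 0.119% in the 6 libraries on chromosome 4, but 13.3% to 49.6% on chromosome 3 and 0% to 20.4% on chromosome 2. In WT F1 it was 48.2% to 50.7% in every library and region. On chromosome 3 a prmt5-5 library was therefore close to balance, and CA1 there had Ler shares of 0.440% to 42.5% over the 6 prmt5-5 libraries. Whether prmt5-5 Ler carries Col sequence in these regions was not tested, and it bears on each value given for them. PRMT5 itself had a Ler share of 0.189% of 1057 allele counts in prmt5-5 F1.

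In the 3 regions together 103 of 792 genes were called between prmt5-5 Ler and prmt5-5 Col (13.0%), against 213 between WT Ler and WT Col (26.9%). In the rest of the nuclear genome 6295 of 21931 genes were called in prmt5-5 (28.7%) and 6567 in WT (29.9%). On chromosome 4 the share called was 12.8% in prmt5-5 and 25.4% in WT, on chromosome 3 it was 12.4% in prmt5-5 and 25.6% in WT, and on chromosome 2 it was 17.7% in prmt5-5 and 43.5% in WT. The interaction was called for 68 genes of the regions (8.59%) and for 700 of the rest (3.19%). Calls of the mutant comparison inside the regions include CA1, GLDP1, SQD1, SRG3, POLAR, NAC044 and DCL2, which lie on chromosome 3 or 4. The call of CA1 was lost without replicate 2 of prmt5-5 Col (adjusted p = 0.147), without replicate 2 of prmt5-5 Ler (0.120) and without replicate 3 of prmt5-5 Ler (0.0811). Leaving out a library moved the prmt5-5 share of the chromosome 4 region to between 9.33% and 16.9% and that of chromosome 2 to between 11.3% and 22.6%; the value of 11.3% came without replicate 2 of prmt5-5 Col. The chromosome 3 region gave 7.75% without replicate 2 and 8.27% without replicate 3 of prmt5-5 Col.

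Some genes of these regions carried interactions. AT2G15042, a leucine-rich repeat gene on chromosome 2, had 14.8, 17.1 and 15.5 CPM in prmt5-5 Ler and 11.3, 8.23 and 9.86 CPM in prmt5-5 Col, while WT had 0.0901, 0 and 0.132 CPM in Ler and 10.8, 13.2 and 10.8 CPM in Col. WT Ler was the 1 group nearly without RNA of this gene, and in prmt5-5 F1 its Ler share was 0.125% of 3203 allele counts. AT3G01345, on chromosome 3, had 2.94, 4.56 and 3.66 CPM in prmt5-5 Ler and 0.504, 0.349 and 0.407 CPM in prmt5-5 Col, with no count in WT Ler and 0.267, 0.239 and 0.344 CPM in WT Col. AT3G02790, a zinc finger gene there, had 31.9, 26.5 and 29.1 CPM in prmt5-5 Ler and 20.7, 16.4 and 19.9 CPM in prmt5-5 Col, but 10.8, 9.14 and 10.3 CPM in WT Ler and 14.9, 17.79 and 16.5 CPM in WT Col. CA1, a carbonic anhydrase, had 4378, 3834 and 4063 CPM in prmt5-5 Ler and 4825, 5625 and 4708 CPM in prmt5-5 Col, against 2064, 2234 and 2072 CPM in WT Ler and 4464, 4795 and 5056 CPM in WT Col. The mutant accessions of CA1 were closer to each other than the WT accessions (interaction 0.86, SE 0.14, adjusted p = 0.00464).

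**Figure D5:**
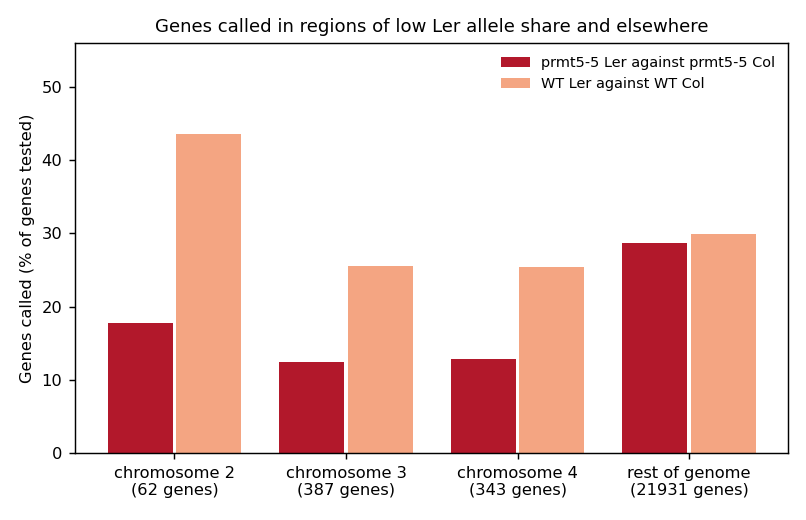
Percent of tested genes called between accessions in the 3 regions of low Ler allele share and in the rest of the nuclear genome, for prmt5-5 Ler against prmt5-5 Col (dark bars) and WT Ler against WT Col (light bars). In each region the prmt5-5 share is below that of WT, 12.4% to 17.7% against 25.4% to 43.5%, while in the rest the shares are 28.7% and 29.9%.

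The F1 alleles gave a readout of the same genes in other plants, in which both alleles share 1 cell environment. Ler reads lost on the Col reference would lower the parental Ler level and the F1 Ler share alike. For genes low in Ler the 2 readouts are therefore not independent in this respect. Every F1 library held more Col than Ler allele counts in total. The allele difference in prmt5-5 F1 was fitted for 18929 genes and called for 5832 (30.8%). Outside the regions above, 5524 genes called between prmt5-5 Ler and prmt5-5 Col had an allele value. In 4687 of them (84.8%) the allele difference had the same sign, in 2852 (51.6%) it had the same sign and was called, in 134 (2.43%) it was called with the opposite sign, and in 2538 (45.9%) it was not called. Among genes called with a fold of at least 2, 1182 of 1704 (69.4%) had the same sign and a call. Of genes called in both prmt5-5 and WT 63.1% did, and of those called in prmt5-5 alone 33.2%. A gene not called between alleles may lack allele counts, so the shares are no measure of the size of the allele effect.

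The background for each list is the 51.6% of called genes above whose alleles followed the parents. For aliphatic glucosinolate genes 12 of 14 members called between the parents had the same sign and a call between alleles. For myrosinases and specifiers it was 7 of 11, with 1 opposite and 3 not called, and for indolic genes it was 2 of 4. The Ler share was 99.7% for AOP3, 98.3% for ESP, 1.01% for GSL-OH, 1.17% for TGG2 and 3.09% for ESM1. These 5 allele differences ran the way of the parents, with the limit above for the genes low in Ler. NLR genes followed in 18 of 24, FLC and its regulators in 6 of 7, and RNA silencing genes in 6 of 6. In the salicylic acid list it was 7 of 13, and the other 6 were not called. Phosphate genes followed in 5 of 14 and stomatal markers in 2 of 9, the others not being called. Of 14 flavonoid genes, 2 followed the parents, 7 were called in the opposite direction and 5 were not called. Of 13 flavonoid genes lower in prmt5-5 Ler, 11 had more Ler than Col allele counts, with a median Ler share of 52.2%. UF3GT, an anthocyanin glycosyltransferase picked after its value was seen, had a share of 66.4%. Jasmonate genes followed in 2 of 14, with 3 opposite and 9 not called. Cold and drought genes followed in 5 of 16, with 1 opposite and 10 not called. More Ler than Col allele counts were held by 8 of 12 lower jasmonate genes and 6 of 11 lower cold and drought genes.

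Single genes ran against the parents as well. AT1G27580, an F-box gene, had 28.8, 18.6 and 18.101 CPM in prmt5-5 Ler and 0.233, 0.274 and 0.332 CPM in prmt5-5 Col, yet the Ler share was 11.4% of 395 allele counts in prmt5-5 F1 and 10.7% in WT F1. NSP4 was higher in prmt5-5 Ler with a Ler share of 1.09%, and LHCB1.2 was higher (adjusted p = 0.0301) with a share of 31.5%. The parental call of LHCB1.2 was kept in 7 of the 12 fits that left out a library, and its adjusted p was 0.0977 without replicate 1 of prmt5-5 Ler. All 3 light-harvesting genes with an allele call were opposite to the parents. COR15A, lower in prmt5-5 Ler (log2 -1.12), had a Ler share of 55.3%, and CORI3, a jasmonate-induced lyase that was lower too (log2 -0.59), had 67.8%. COR15A, CORI3 and the LHCB share were picked after their values were seen. The sources used here do not say how reads were assigned to an allele, and in genes with near-identical copies the share can reflect the assignment.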

How the data were processed

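Polyadenylated RNA of whole seedlings was sequenced in 24 libraries, 3 in each of 8 groups, as TruSeq libraries with reads of 100 bp, per the labels. The submitters' processing notes name Trim Galore, FastQC, STAR 2.7.9a and TAIR10; the sources used here name no counting tool, annotation, strand setting or rule for F1 alleles. Raw counts per gene of the 12 parental libraries, and counts per allele of the F1 libraries, were deposited. No column belonged to another series.

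The deposited counts of the parental libraries were fitted with edgeR 4.0.16 in R 4.3.3 (TMM, filterByExpr, robust quasi-likelihood, 1 mean per group); folds are Ler over Col, and a gene was called at a Benjamini-Hochberg adjusted p under 0.05 over 22924 genes. CPM use TMM library sizes. A fit with a block for each library was made on allele counts of the 6 prmt5-5 F1 libraries, for genes with at least 20 allele counts over them. Regions of low Ler share were sought per 200 kb bin; a bin needed 10 genes, each with 20 allele counts or more in every F1 group. Counting intervals and bounds cover counting error only. Of 33602 genes, 32835 matched RefSeq's TAIR10.1 table and 767 did not.

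The naming rule took PRMT5 and several sets of genes. The first set held the 10 largest folds in each direction with mean counts of at least 10 in both groups. It also required no overlap between the accessions. Further sets held the 6 in each direction of highest CPM where the other group had at most 3 counts. Others held the 6 of largest CPM difference and of largest interaction in each direction. The last sets held the 6 opposite genes of smallest p and the 4 members of each list with the smallest p. Some genes that this rule picks are not reported here. Named after their values were seen, outside that rule, were AP1, BAT5, CBF3, CCA1, COR15A, CORI3, CRK15, CRK23, DCL2, ER, FMO1, MAM1, MAM3, MBP1, MGD2, MYB28, MYB29, MYBL2, NAC044, NIMIN2, NSP4, FT, PHT1;1, PHT1;3, POLAR, PR1, PR2, PR5, SPX1, SPX3, SQD1, SRG3, TGG1 and UF3GT. The comparison and the 28 lists were chosen with earlier results of these data known. The P1BS motif was searched after the data were seen. Alternatives were RLE factors, DESeq2 1.42.0, no count filter, a replicate block, the prmt5-5 libraries alone, and each parental library left out.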

Additional observations from a re-analysis of the deposited data

Results flagged for a closer look

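For 34 of the genes that the naming rule picked, the accession difference itself differed between prmt5-5 and WT by edgeR's interaction test (adjusted p under 0.05 over all genes tested), which is the sole ground on which they are listed here. Genes picked after their values were seen, such as CBF3, CCA1 and CRK23, are not among the 34. The interaction is the prmt5-5 log2 fold change (Ler over Col) minus the WT one. Values of genes with a group at or near 0 counts depend on the prior count and are not bounds.

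Among genes with no or few counts in a group it was 11.31 for AT4G06506, 10.13 for AT3G01345, 8.05 for AT2G15042, 7.37 for AT2G22710, 7.16 for AT5G28053, 6.67 for AT1G10880 and 6.50 for AT5G03495. In the negative direction it was -5.59 for AT4G08115, -4.69 for AT1G47520, -4.22 for AT1G36620, -4.19 for TPS03 and -3.67 for AT5G66053. AT2G22710 had 1.24, 0.885 and 0.654 CPM in prmt5-5 Ler, 0.0775, 0.0499 and 0.0905 CPM in prmt5-5 Col, 0, 0 and 0 CPM in WT Ler and 0.0314, 0 and 0.0430 CPM in WT Col.

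Among the genes of largest fold it was -2.26 for AT5G15360, -3.52 for AT4G12170, -0.98 for AT2G11240, -1.003 for GSL-OH, -1.29 for AT1G65370 and -1.86 for MLO7. MLO7, a membrane protein of the MLO family, had 0.165, 0.200 and 0.112 CPM in prmt5-5 Ler and 8.53, 7.91 and 8.67 CPM in prmt5-5 Col, against 0.216, 0.224 and 0.159 CPM in WT Ler and 2.78, 3.61 and 2.41 CPM in WT Col. AT4G12170, a thioredoxin superfamily gene, had 27.0, 18.3 and 17.5 CPM in prmt5-5 Ler and 0.213, 0.549 and 0.648 CPM in prmt5-5 Col, against 32.6, 44.2 and 33.0 CPM in WT Ler and 0.0785, 0.186 and 0 CPM in WT Col. For genes in opposite directions or of high level it was 1.31 for AT3G02790, 1.18 for RPP7, 1.37 for AT4G02420, 0.83 for AT1G62850 and 0.86 for CA1.

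Among list members it was -0.72 for CYP81F4, 0.82 for SAG101, -0.50 for ERD10, -1.34 for KIN2, -1.44 for COR15B, 0.61 for UGT78D1, -0.40 for LUC7RL, 0.97 for AGO7, -0.42 for NRPE1, 0.62 for KRP6 and -1.22 for EXPA7.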

How the results depend on the processing

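Of the 162 named genes, 152 were called, 133 of them kept call and direction under every alternative run, and 0 changed direction by edgeR or DESeq2. The naming rule favours large differences and small p, so this stability was in part fixed by the choice of genes. The count of 6434 genes became 6400 with RLE factors, 7013 with DESeq2, 6289 without the count filter and 5696 in the prmt5-5 libraries alone. With DESeq2 the interaction was called for 1633 genes, 833 positive and 800 negative, and 113 genes were opposite; the cause was not tested. Pairing by replicate number was not borne out: same-numbered prmt5-5 Ler and Col libraries had correlations of deviations of -0.0383, -0.0941 and -0.025. With the replicate block 6223 genes were called in prmt5-5 and 786 in the interaction.

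Leaving out one library gave 4875 to 6794 genes called in prmt5-5 (2362 to 3455 higher, 2513 to 3519 lower), 2015 to 2240 of at least 2-fold, 5368 to 7861 in WT (2549 to 3847 higher, 2819 to 4014 lower) and 380 to 1744 in the interaction (189 to 834 positive, 191 to 910 negative). Genes of the same direction numbered 3245 to 3959 and opposite ones 36 to 176. The share called was 9.33% to 16.9% in prmt5-5 and 20.1% to 31.2% in WT in the chromosome 4 region, and 7.75% to 14.0% in prmt5-5 and 18.9% to 29.5% in WT in that of chromosome 3. It was 11.3% to 22.6% in prmt5-5 and 35.5% to 46.8% in WT in that of chromosome 2, and 21.5% to 29.9% in prmt5-5 and 23.4% to 34.2% in WT elsewhere. With a Ler share limit of 25% the regions had 14.1% called in prmt5-5 and 27.2% in WT. The count at a fold of at least 2 and pooled allele counts per bin (13.2% in prmt5-5, 26.7% in WT) were chosen after seeing the data. With at least 100 allele counts, 54.3% of parental calls had a called allele difference of the same sign. With 3 libraries per group, small differences of genes with few counts were not detectable at this depth.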
